A study of Homo sapiens with 6 samples.

Results

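The mitochondrial chromosome of human cells carries 37 genes, and all 37 were examined in T24 cells, an established line from a bladder carcinoma. The members were taken as every Ensembl gene that the annotation places on the mitochondrial chromosome, out of 58882 rows in the deposited tables. They comprise 13 mRNAs, 2 rRNAs and 22 tRNAs. The Q63E group held T24 cells with a stable transgene for RhoC, a small GTPase, in its constitutively active Q63E form (3 libraries), and the VEC control group held T24 cells that carry the vector (3 libraries). Per the labels' protocols, both groups were made with lentivirus, both were selected with puromycin, and libraries were built from total RNA with an Illumina TruSeq RNA kit. The promoter that drives the transgene, whether each line was a clone or a pool, whether poly(A) RNA was selected and whether strand was kept were not stated in the labels. Nothing in the labels makes the replicates separate cultures, so each p-value reflects library-to-library spread alone, and that spread may be technical.

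The mitochondrial chromosome is a small circle that is transcribed from both strands as long precursors. Most genes lie end to end with tRNAs between them, and cutting out the tRNAs frees the rRNAs and mRNAs. Most of these RNAs, though not all, then receive short poly(A) tails. The mRNAs encode membrane subunits of respiratory complexes I, III and IV and of the ATP synthase (complex V), while the rRNAs and tRNAs serve the ribosomes that translate them inside the organelle. Since the genes share precursors, differences between their steady-state levels are known to depend largely on processing and stability after transcription. Of the 37 genes, 28 run in the direction of the heavy-strand transcript (12 mRNAs, both rRNAs and 14 tRNAs). The other 9 run the opposite way, namely MT-ND6 and 8 tRNAs.

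Some junctions between mitochondrial mRNAs hold no tRNA, and these sequences are shown because the genes they join include those of the largest changes (MT-ATP8, MT-ATP6, MT-CO3) and a pair that did not pass the test (MT-ND4L, MT-ND4). MT-ATP8 (chromosome MT from 8366 to 8572, GRCh38, plus strand) is printed with its 46-base overlap with MT-ATP6 in capitals. MT-ATP6 (8527 to 9207) and MT-CO3 (9207 to 9990) share 1 base, which is in capitals in the last 30 bases of MT-ATP6 and the first 30 of MT-CO3. MT-ND4L (10470 to 10766) overlaps MT-ND4 (10760 to 12137) by 7 bases, in capitals in the last 30 bases of MT-ND4L. The sequences come from GENCODE release 29.
MT-ATP8: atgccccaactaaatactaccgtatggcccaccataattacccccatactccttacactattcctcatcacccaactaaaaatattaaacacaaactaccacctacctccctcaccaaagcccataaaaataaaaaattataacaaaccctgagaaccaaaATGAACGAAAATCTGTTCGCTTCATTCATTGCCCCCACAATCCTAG
MT-ATP6 end: gtaagcctctacctgcacgacaacacataA
MT-CO3 start: Atgacccaccaatcacatgcctatcatata
MT-ND4L end: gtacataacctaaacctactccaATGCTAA

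Values are taken as FPKM (fragments per kilobase of transcript, scaled to library size), with 20792 to 21379 rows above 0 per library. They totalled 726929 to 741778 per library in Q63E and 746175 to 769026 in VEC, so the totals of the groups did not overlap. Read counts could not be recovered, so depth is unknown and values carry no interval for counting error. RHOC, the transduced gene, had levels of 1770.09, 1726 and 1744 FPKM in Q63E libraries 1, 2 and 3, and of 232, 218 and 232 FPKM in VEC libraries 1, 2 and 3 (no overlap). Of 6 epithelial markers 4 had a mean of at least 1 FPKM (summed level 3349.5 to 3454 FPKM in Q63E and 2116 to 2154 FPKM in VEC) and CDH1 (E-cadherin) was listed at 0 throughout. Of 9 urothelial markers 3 did (26.3 to 28.3 FPKM in Q63E and 18.3 to 20.8 FPKM in VEC), with UPK3A at 0 throughout and GATA3 at 0.363 FPKM in Q63E and 1.79 FPKM in VEC (not passed), and of 6 mesenchymal markers 3 did (2143 to 2327 FPKM in Q63E and 3222 to 3296 FPKM in VEC, nearly all of it VIM, while CDH2 was higher in Q63E at 44.0 against 33.5 FPKM in VEC, adjusted p = 0.0024 in limma). Of the leukocyte markers PTPRC, CD3E, LYZ and CD68, CD68 alone did (summed level 9.5 to 11.1 FPKM in Q63E and 17.6 to 19.4 FPKM in VEC), with PTPRC and CD3E at 0 throughout, and of 4 endothelial and 2 erythroid markers 0 did. The part of these marker differences in the results was not tested.

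Mitochondrial mRNAs were lower in Q63E cells, and by very unequal amounts along the chromosome. Changes were tested on all 13346 rows with a mean of at least 1 FPKM, with limma on log2(FPKM + 1) and Benjamini-Hochberg adjustment over all of them. Of the 37 mitochondrial genes, 16 were tested, 12 were lower in Q63E at an adjusted p under 0.05 and 0 were higher, while over all rows tested 25.3% passed, 14.0% lower and 11.3% higher. All 16 log2 changes lay below 0, and 11 of them lay above 0 when levels were instead divided by the sum of the 13 mitochondrial mRNAs. By class, 10 of 13 mRNAs, 1 of 2 rRNAs and the single tRNA tested were lower. The median log2 change was −0.48 over the 16 genes and −0.00 over all rows tested, whose 5th percentile was −0.68. In 13 of the 16 every Q63E library lay below every VEC library, against 22.8% of all rows (43.9% stood apart in either direction). In bulk RNA, fewer cells with a transcript and less of it per cell cannot be told apart, and neither the number of mitochondria nor that of their chromosomes was measured.

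Together the 37 genes held 6.27%, 5.58% and 5.64% of the summed FPKM in Q63E libraries 1, 2 and 3, against 8.97%, 9.44% and 8.44% in VEC libraries 1, 2 and 3. The groups did not overlap (p = 0.1 in an exact two-sided permutation test, which cannot go lower with 3 against 3). Mitochondrial rows were among the highest of the tables, with 4 of the 10 and 12 of the 100 rows of highest mean. Nearly all of this share was mRNA, with 5.43% ± 0.374 in Q63E and 8.50% ± 0.51 in VEC (SD, n = 3 each). FPKM is set per kilobase, so short genes weigh more in such sums than their reads do. MT-ATP8, a row of 207 bases, alone averaged 7209 FPKM in Q63E and 16100 FPKM in VEC.

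**Figure D1:**
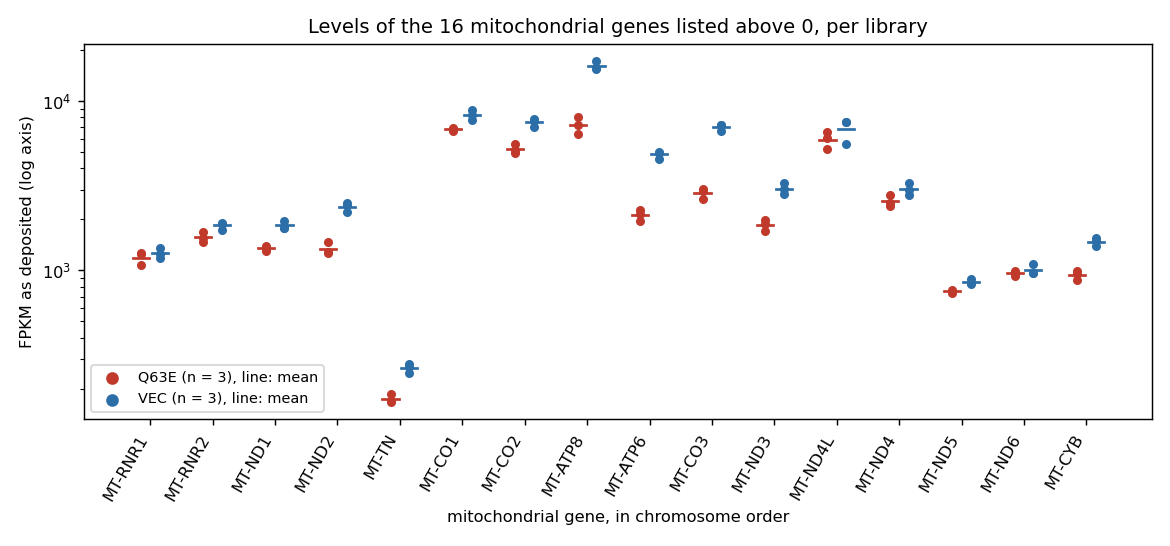
FPKM of the 16 mitochondrial genes listed above 0 (log axis), in the order of the chromosome, with 1 point per library and a line at each group's mean. The widest gaps between Q63E and VEC lie at MT-ATP8, MT-ATP6 and MT-CO3, while the points of the 2 groups overlap at MT-RNR1, MT-ND4L and MT-ND6.

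The 3 largest falls were those of both ATP synthase mRNAs and their neighbour MT-CO3, except with quantile normalization. There MT-ATP8 had a log2 change of −0.43 and did not pass (adjusted p = 0.126 in limma). It then came after MT-ND2, MT-ND3, MT-CYB, MT-TN, MT-ND1 and MT-CO2 as well as MT-CO3 and MT-ATP6. Quantile normalization gives rows of equal rank the same value in every library, and MT-ATP8 had the highest mean of all rows. MT-ATP8 encodes a small membrane subunit of the ATP synthase. Its levels were 8035, 6405 and 7187 FPKM in Q63E libraries 1, 2 and 3, and 15660.5, 17213 and 15428 FPKM in VEC libraries 1, 2 and 3. MT-ATP6 encodes subunit a, part of the proton channel, and had 2284, 1959.9 and 2142 FPKM in Q63E against 5027, 4956 and 4529 FPKM in VEC. Every Q63E library was below every VEC library for both genes. The log2 changes were −1.16 (SE 0.0892, adjusted p = 0.000416 in limma) for MT-ATP8 and −1.19 (SE 0.0683, adjusted p = 0.000154) for MT-ATP6. Because the 2 reading frames overlap on a single mRNA, as the capitals above show, their rows can share reads and are not independent measurements. MT-ATP8 was the row of highest mean in the whole table. At 207 bases it is also the shortest of the 13 mRNAs, and FPKM of very short genes depends strongly on how the effective length was set.

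The 3 mRNAs for complex IV (cytochrome c oxidase) all fell, yet by different amounts. MT-CO1, the catalytic subunit with the oxygen-binding site, had 6971, 6865 and 6634 FPKM in Q63E and 8795, 8259 and 7764 FPKM in VEC. MT-CO2, which accepts electrons from cytochrome c, had 5586, 4946 and 5149.97 FPKM in Q63E and 7644, 7777 and 7059.9 FPKM in VEC. MT-CO3, the third core subunit, had 2959.5, 2629 and 3002 FPKM in Q63E and 7185, 7251 and 6625 FPKM in VEC. None of the 3 genes overlapped between the groups. Their log2 changes were −0.28 (SE 0.0536, adjusted p = 0.0123 in limma), −0.52 (SE 0.0606, adjusted p = 0.0018) and −1.29 (SE 0.0644, adjusted p = 9.09e-05) in the order MT-CO1, MT-CO2, MT-CO3. The call of MT-CO1 was lost without Q63E replicate 3 (adjusted p = 0.0504) and with no filter on low values (adjusted p = 0.12), while those of MT-CO2 and MT-CO3 held under every alternative tried except division by the sum of the mitochondrial mRNAs, where MT-CO2 changed sign. The level of MT-CO3 relative to MT-CO1 was 0.425, 0.383 and 0.453 in Q63E libraries 1, 2 and 3, against 0.817, 0.878 and 0.853 in VEC libraries 1, 2 and 3. That ratio therefore separated the groups (exact two-sided permutation p = 0.1, the smallest possible).

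**Figure D2:**
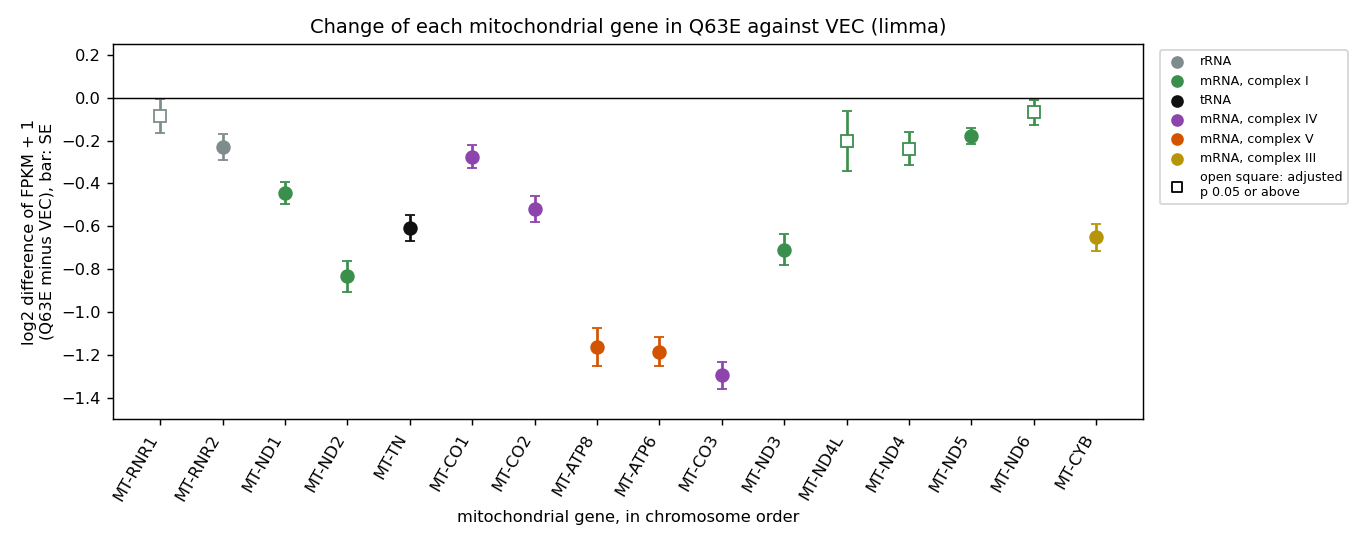
log2 difference of FPKM + 1 between Q63E and VEC for each mitochondrial gene in the order of the chromosome, with SE bars from limma, filled circles where the adjusted p was under 0.05 and open squares where it was not. The changes run from −1.29 at MT-CO3 to −0.07 at MT-ND6, with no gene above 0 on this scale (11 of the 16 are above 0 relative to the sum of the mitochondrial mRNAs).

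Complex I, the NADH dehydrogenase, has 7 mitochondrial subunits, of which 4 were lower and 3 did not pass. MT-ND2 changed most, with 1464, 1263 and 1281 FPKM in Q63E and 2428, 2489 and 2218 FPKM in VEC (log2 change −0.83, SE 0.0716, adjusted p = 0.000604 in limma). MT-ND3 had 1889, 1716 and 1970.05 FPKM in Q63E and 3042, 3266 and 2807 FPKM in VEC (log2 change −0.71, SE 0.0729, adjusted p = 0.00112). MT-ND1 had 1398, 1343 and 1308 FPKM in Q63E and 1778, 1967 and 1776 FPKM in VEC (log2 change −0.45, SE 0.0515, adjusted p = 0.00175). In all 3 genes the groups stood apart. The fall of MT-ND5 was small, with 739.6, 767 and 744 FPKM in Q63E and 884, 842 and 826 FPKM in VEC (log2 change −0.18, SE 0.0371, adjusted p = 0.015). Its call was lost without Q63E replicate 1 or 3 and without the variance trend (adjusted p up to 0.0724 over all alternatives).

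The 3 complex I mRNAs that did not pass were MT-ND4L, MT-ND4 and MT-ND6. MT-ND4L and MT-ND4 are read from a single mRNA with overlapping frames, so their rows too can share reads. MT-ND4 had 2768, 2499.6 and 2403 FPKM in Q63E and 3265, 3000.4 and 2784 FPKM in VEC, with groups that stood apart and a log2 change of −0.24 (SE 0.0758, adjusted p = 0.0636 in limma). Without Q63E replicate 1 it passed. MT-ND4L had 6526, 6017 and 5215 FPKM in Q63E and 7465, 7551 and 5537 FPKM in VEC (log2 change −0.20, SE 0.14, adjusted p = 0.337). The groups overlapped, with VEC replicate 3 far below VEC replicates 1 and 2, and the coefficient of variation in VEC, 16.6%, was the highest of the 16 genes.

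MT-ND6 is the only mRNA transcribed from the light-strand promoter. It had 959, 989 and 928 FPKM in Q63E and 1093, 966 and 963 FPKM in VEC, so the groups overlapped (log2 change −0.07, SE 0.0576, adjusted p = 0.426 in limma). Its share of the summed mitochondrial mRNA was 2.41% ± 0.167 in Q63E and 1.57% ± 0.115 in VEC (SD, n = 3 each). Against MT-ND5, its convergent neighbour, the level of MT-ND6 was 1.28 ± 0.0266 in Q63E and 1.18 ± 0.0463 in VEC (SD, n = 3 each), without overlap. If strand was not kept, reads of MT-ND6 and of heavy-strand RNA that runs through it cannot be told apart, so its level may include both.

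MT-CYB, cytochrome b of complex III and the last mRNA of the heavy-strand transcript, had 993, 875 and 957 FPKM in Q63E and 1558, 1491 and 1389 FPKM in VEC. It was lower without overlap (log2 change −0.65, SE 0.0624, adjusted p = 0.000866 in limma). MT-ND3 and MT-CYB, on either side of the region from MT-ND4L to MT-ND6, had log2 changes of −0.71 and −0.65, and the 4 mRNAs within it −0.24 to −0.07. In the summed mitochondrial mRNA, complex V held 23.4% ± 1.30 in Q63E and 32.6% ± 1.07 in VEC, complex I 36.9% ± 1.27 in Q63E and 29.5% ± 1.06 in VEC, and complex IV 37.4% ± 0.825 in Q63E and 35.5% ± 0.673 in VEC (SD, n = 3 each). Groups did not overlap in any of these 3 shares (exact two-sided permutation p = 0.1 for each), while complex III held 2.36% ± 0.0885 in Q63E and 2.31% ± 0.0729 in VEC (exact permutation p = 0.5). Shares of 1 sum are tied to each other, so a lower share of complex V raises the rest. They are also sums of FPKM, in which short genes weigh heavily. MT-ATP8 (207 bases) averaged 7209 FPKM in Q63E and 16100 in VEC, against 2129 and 4837 for MT-ATP6. Its FPKM depends strongly on how the effective length was set. MT-ND4L (297 bases) was the largest complex I term, with means of 5919 FPKM in Q63E and 6851 in VEC.

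**Figure D3:**
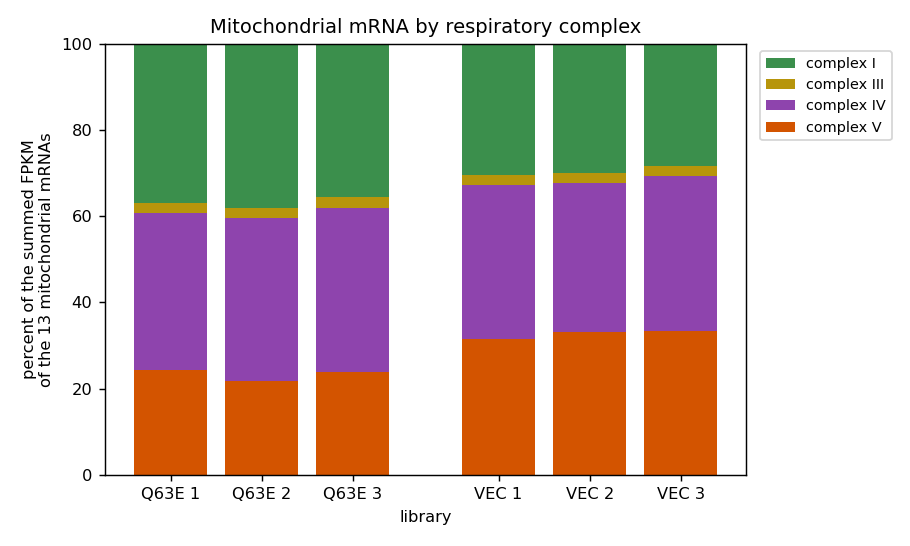
Percent of the summed FPKM of the 13 mitochondrial mRNAs held by each respiratory complex, 1 bar per library. Complex V takes 21.9% to 24.2% in the Q63E libraries and 31.4% to 33.4% in the VEC libraries. MT-ATP8, the shortest of the 13 mRNAs, holds most of the complex V share.

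Position along the heavy-strand transcript was set beside the changes. Across its 12 mRNAs, Spearman's rho between start position and log2 change was 0.287, given as a description only since the genes share libraries and precursors. Across all 13 mRNAs rho was 0.264 with length, −0.467 with the VEC level and −0.00549 with GC content, which ran from 39.6% to 47.7%. Of 13 ratios of a downstream gene to its upstream neighbour on the heavy strand, 7 were lower in every Q63E library than in every VEC library, 3 were higher and 3 overlapped. Ratios of other gene pairs were not counted, so the share to set beside this is unknown. Among single rows tested, 43.9% stood apart in either direction. For each of the 10 ratios that did not overlap the exact permutation p was 0.1, the smallest possible (0.125 after Benjamini-Hochberg adjustment over the 20 ratios computed).

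The steepest step down was that of MT-ATP8 to MT-CO2, with a ratio of levels of 1.38 ± 0.0736 in Q63E and 2.15 ± 0.0881 in VEC (SD, n = 3 each). The steepest step up came at the far end of the same stretch, where MT-ND3 to MT-CO3 stood at 0.649 ± 0.00949 in Q63E and 0.432 ± 0.0155 in VEC. Within the stretch, MT-ATP6 to MT-ATP8 was 0.296 ± 0.011 in Q63E and 0.301 ± 0.0177 in VEC, with overlap, and MT-CO3 to MT-ATP6 was 1.35 ± 0.053 in Q63E and 1.45 ± 0.0194 in VEC, without overlap. The log2 ratio of MT-CO3 to MT-ATP6 was thus lower in Q63E by a difference of −0.11. A second dip lay at MT-ND2. MT-ND2 to MT-ND1 was 0.989 ± 0.0543 in Q63E and 1.29 ± 0.0631 in VEC, and MT-CO1 to MT-ND2 was 5.13 ± 0.34 in Q63E and 3.48 ± 0.153 in VEC. From MT-ND4L to MT-ND5 the ratios did not separate the groups. MT-ND4 to MT-ND4L was 0.433 ± 0.0241 in Q63E and 0.446 ± 0.0532 in VEC, and MT-ND5 to MT-ND4 was 0.294 ± 0.0237 in Q63E and 0.283 ± 0.013 in VEC.

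**Figure D4:**
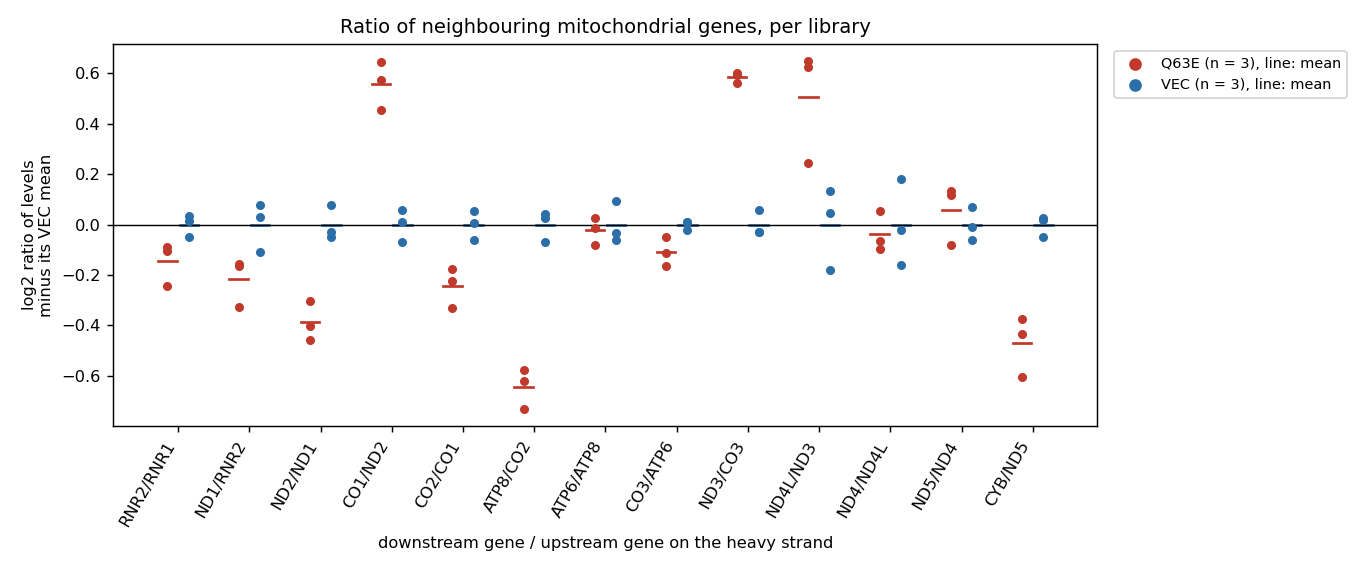
log2 ratio of each heavy-strand gene to its upstream neighbour, minus the VEC mean of that ratio, with 1 point per library and a line at each group's mean. The Q63E points lie below VEC at MT-ATP8/MT-CO2 and above it at MT-ND3/MT-CO3, and they overlap VEC at MT-ATP6/MT-ATP8, MT-ND4/MT-ND4L and MT-ND5/MT-ND4.

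Several mitochondrial mRNAs end in the first bases of a stop codon that the poly(A) tail completes. By length, 6 of the 13 mRNAs had bases left past the last whole codon, and the last 24 bases of 4 of them are printed to show the range of changes among transcripts with the same kind of end, with the bases of the incomplete stop codon in capitals (GENCODE release 29, GRCh38, plus strand).
MT-CO3 end (chrM:9967-9990): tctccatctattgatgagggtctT
MT-ND2 end (chrM:5488-5511): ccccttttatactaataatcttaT
MT-CYB end (chrM:15864-15887): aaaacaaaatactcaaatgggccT
MT-ND4 end (chrM:12114-12137): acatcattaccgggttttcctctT
The log2 changes of these 4 were −1.29, −0.83, −0.65 and −0.24 in the order printed. Over the 6 mRNAs with an incomplete stop codon by annotated length, they ran from −1.29 to −0.24 with a median of −0.68. Over the other 7 they ran from −1.19 to −0.07 with a median of −0.28, so the ranges overlapped. The split rests on annotated length alone. MT-ATP6 (−1.19) falls among the other 7, yet the last base of its stop codon is the base it shares with MT-CO3. MT-ATP8 and MT-ND4L, also among the 7, end inside an mRNA that they share with a neighbour.

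Of the rRNAs, which lie nearest to the heavy-strand promoters, MT-RNR2 was lower and MT-RNR1 did not pass. MT-RNR1, the small-subunit rRNA, had 1261, 1241 and 1069 FPKM in Q63E and 1182, 1248 and 1357 FPKM in VEC, with overlap (log2 change −0.09, SE 0.0792, adjusted p = 0.472 in limma). MT-RNR2, the large-subunit rRNA, had 1556, 1684 and 1468 FPKM in Q63E and 1742, 1865 and 1915 FPKM in VEC, without overlap (log2 change −0.23, SE 0.0612, adjusted p = 0.0359). The call of MT-RNR2 was lost without Q63E replicate 1 or 3, without VEC replicate 2 or 3, with no filter on low values, with libraries rescaled to a common total and without the variance trend (adjusted p up to 0.111 over all alternatives). Summed rRNA over summed mRNA was 0.0662, 0.0764 and 0.0652 in Q63E libraries 1, 2 and 3, and 0.0444, 0.0464 and 0.0548 in VEC libraries 1, 2 and 3. It was therefore higher in every Q63E library (exact two-sided permutation p = 0.1). The rRNAs are abundant in cells and their low level here relative to mRNA cannot be read as an amount per cell, because the labels do not say how rRNA was removed.

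Libraries also differed within a group. VEC replicate 3 had the lowest level of its group in 13 of 13 mRNAs and the highest in both rRNAs. In Q63E, replicate 1 was the highest of its group in 9 of 13 mRNAs, while replicate 3 was the lowest in both rRNAs. The log2 changes without VEC replicate 3 or Q63E replicate 1 kept their sign for all 16 genes.

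Among the 22 tRNAs, MT-TN, the tRNA for asparagine, was the single one listed above 0. It had 166, 169 and 186 FPKM in Q63E and 248, 278 and 269.5 FPKM in VEC, without overlap (log2 change −0.61, SE 0.0615, adjusted p = 0.00107 in limma). The other 21, listed at 0 in all 6 libraries, were MT-TF, MT-TV, MT-TL1, MT-TI, MT-TQ, MT-TM, MT-TW, MT-TA, MT-TC, MT-TY, MT-TS1, MT-TD, MT-TK, MT-TG, MT-TR, MT-TH, MT-TS2, MT-TL2, MT-TE, MT-TT and MT-TP. They are 59 to 75 bases long. Of 1303 Ensembl rows of up to 75 bases in the tables, 3 were above 0 in any library, and of 28513 rows over 1000 bases 74.4% were. A listing at 0 for a tRNA therefore says nothing about its amount. MT-TN (chrM:5657-5729) is shown beside MT-TA (chrM:5587-5655) and MT-TC (chrM:5761-5826), its neighbours in a cluster of tRNAs that were listed at 0, with the anticodon in capitals (GENCODE release 29, GRCh38, minus strand).
MT-TN: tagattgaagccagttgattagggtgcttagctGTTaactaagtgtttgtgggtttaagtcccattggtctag
MT-TA: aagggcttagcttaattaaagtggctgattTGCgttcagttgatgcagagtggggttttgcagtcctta
MT-TC: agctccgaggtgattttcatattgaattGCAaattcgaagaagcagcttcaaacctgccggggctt
MT-TN was 73 bases long and thus no longer than MT-TL1, which has 75 and was listed at 0. Its cluster lies between MT-ND2 and MT-CO1, which are transcribed the other way. Relative to MT-ND2 the level of MT-TN was 0.131 ± 0.016 in Q63E and 0.112 ± 0.00975 in VEC (SD, n = 3 each), with overlap (exact permutation p = 0.2). Relative to MT-CO1 it was 0.0255 ± 0.00223 in Q63E and 0.0322 ± 0.00352 in VEC, without overlap. Mature tRNA and its precursor cannot be told apart in this row, nor can RNA from the other strand if strand was not kept. At 73 bases, its FPKM also depends strongly on how the effective length was set.

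Nuclear chromosomes hold old insertions of mitochondrial DNA, and where such a copy is near-identical to the mitochondrial gene, reads may be assigned to either. The tables held 417 rows named as such copies, of which 58 were above 0 in any library and 3 had a mean of at least 10 FPKM. MTATP6P1 (chromosome 1 from 633696 to 634376), the copy of MT-ATP6, differs from it at 10 of 681 bases and shares an identical run of 141. A window of 60 bases with 3 of these differences in capitals shows how alike they are (GENCODE release 29, GRCh38, plus strand).
MT-ATP6 (chrM:8642-8701): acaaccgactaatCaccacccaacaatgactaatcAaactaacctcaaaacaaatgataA
MTATP6P1 (chr1:633811-633870): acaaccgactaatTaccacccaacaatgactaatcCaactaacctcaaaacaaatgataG
MTATP6P1 had 260.4, 215 and 306 FPKM in Q63E and 521, 795 and 512 FPKM in VEC, so the groups did not overlap. Its log2 change was −1.21 (SE 0.2, adjusted p = 0.00673 in limma), beside −1.19 for MT-ATP6. MTCO1P12, the copy of MT-CO1 in the same insertion, had 42.3, 39.1 and 37.4 FPKM in Q63E and 46.1, 43.4 and 42.7 FPKM in VEC (log2 change −0.15, SE 0.0595, adjusted p = 0.112), beside −0.28 for MT-CO1. MTRNR2L1, a copy of MT-RNR2 on chromosome 17 with 88.8% identity, had 12.3, 13.6 and 11.2 FPKM in Q63E and 12.9, 12.4 and 13.4 FPKM in VEC (log2 change −0.06, SE 0.0819, adjusted p = 0.651).

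The same insertion on chromosome 1 also holds copies of MT-ND1, MT-ND2, MT-CO2, MT-ATP8 and MT-CO3, which are 97.6% to 99.4% identical to the genes over the aligned stretch. These rows averaged at most 1.69 FPKM in either group. MTATP8P1 was listed at 0 in every library, and MTCO3P12 averaged 0.0533 FPKM in Q63E and 0.0433 FPKM in VEC. With the rows of all named copies added to those of the mitochondrial genes, every call and every sign stayed the same, and the log2 change of MT-ATP6 was −1.19. This sum could hardly have changed a call, since the copies lay far below the genes. MTATP6P1, the highest copy, averaged 435 FPKM over the 6 libraries beside 3483 FPKM for MT-ATP6. The sum therefore does not show how reads were assigned. Whether reads from mitochondrial RNA make up the values of MTATP6P1 was not tested.

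**Figure D5:**
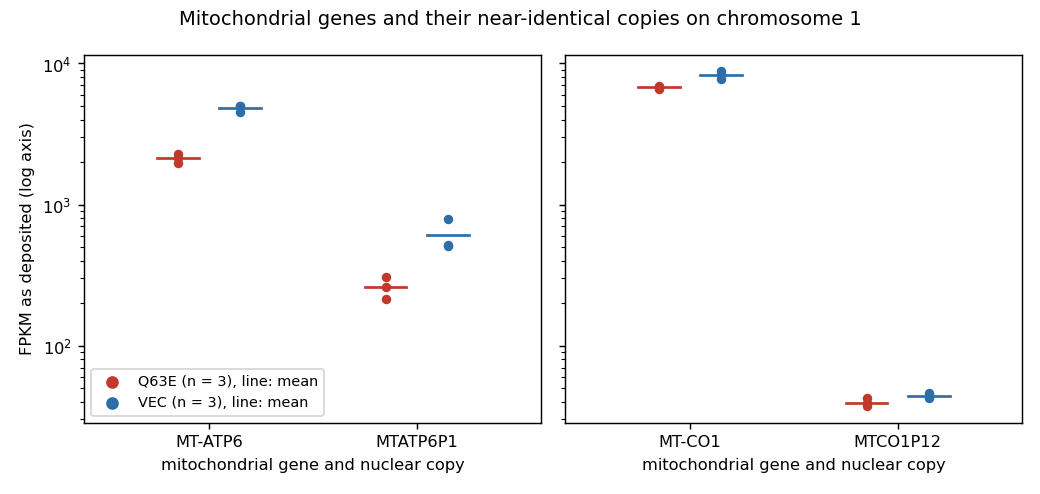
FPKM per library (log axis) of MT-ATP6 and MT-CO1 and of their near-identical copies on chromosome 1, with a line at each group's mean. For both MT-ATP6 and MTATP6P1 every Q63E point lies below every VEC point, with Q63E to VEC ratios of 0.44 and 0.427.

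Nuclear genes that serve the mitochondrial chromosome or work beside its products were counted by list. Over 10 lists with 154 members tested, 18 (11.7%) were lower and 11 higher in Q63E, against 14.0% and 11.3% of all rows, and the median log2 change was −0.04. Among the 10 genes of mitochondrial transcription 3 were lower and 0 higher in limma (2 higher at an unadjusted p under 0.05), with a median of 0.06. MRPL12, a ribosomal protein that also binds the mitochondrial RNA polymerase, had 127.3, 125 and 129.7 FPKM in Q63E and 172, 169.6 and 165 FPKM in VEC (log2 change −0.41, SE 0.0339, adjusted p = 0.000559 in limma). MTERF3, of the mitochondrial transcription termination factor family, had a log2 change of −0.23 (adjusted p = 0.0134), and TFB2M, which melts the promoter for the polymerase, also −0.23 (adjusted p = 0.0377). The median log2 change of up to 50 neighbouring tested genes was −0.16 for MRPL12, −0.14 for MTERF3 and 0.02 for TFB2M. TFB2M did not pass when any 1 of the 6 libraries was left out, and MTERF3 did not without Q63E replicate 1. POLRMT and TFAM, named outside the rule for naming genes because of their roles, did not pass. The polymerase gene POLRMT had 14.1 ± 1.78 FPKM in Q63E and 16.3 ± 0.587 FPKM in VEC, with overlap (log2 change −0.20, adjusted p = 0.168 in limma). For TFAM, which packages the chromosome and opens its promoters, the log2 change was 0.19 (adjusted p = 0.104 in limma). In TFAM all 3 Q63E libraries lay above all 3 VEC libraries, with 44.9 ± 4.38 FPKM in Q63E and 39.1 ± 0.941 FPKM in VEC.

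Among 24 genes of mitochondrial RNA processing and stability, 2 were lower (8.33%) and 1 higher, with a median of −0.05. Over all rows 14.0% were lower and 11.3% higher. GRSF1, which binds RNA in mitochondrial RNA granules, had 57.5 ± 1.84 FPKM in Q63E and 70.6 ± 2.02 FPKM in VEC (log2 change −0.29, adjusted p = 0.00412 in limma). It lies on chromosome 4, where the median log2 change of its 50 neighbouring tested genes was −0.43. FASTKD2, which the large mitochondrial ribosomal subunit needs for assembly, had 13.8 ± 0.1 FPKM in Q63E and 16.8 ± 0.271 FPKM in VEC (log2 change −0.26, adjusted p = 0.0117, neighbour median 0.14). MRPS27, a ribosomal protein with an RNA-binding fold, had 48.6 ± 0.358 FPKM in Q63E and 43.8 ± 0.425 FPKM in VEC (log2 change 0.15, adjusted p = 0.0255, neighbour median 0.10), and this call was lost when any 1 library was left out. Also named outside the rule, LRPPRC and SLIRP form the complex that stabilises mitochondrial mRNAs. LRPPRC had 33.3 ± 0.998 FPKM in Q63E and 31.9 ± 0.771 FPKM in VEC (adjusted p = 0.396), and SLIRP 204 ± 3.70 FPKM in Q63E and 211 ± 6.13 FPKM in VEC (adjusted p = 0.358). FASTKD5, needed for cutting at junctions without a tRNA such as that of MT-ATP6 with MT-CO3, had 11.3 ± 0.676 FPKM in Q63E and 11.9 ± 0.64 FPKM in VEC (adjusted p = 0.544).

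Of 26 genes that modify mitochondrial rRNAs and tRNAs, 2 were lower (7.69%) and 3 higher, against 14.0% lower and 11.3% higher over all rows. RPUSD3, a pseudouridine synthase family member, had 34.6 ± 2.94 FPKM in Q63E and 20.04 ± 1.29 FPKM in VEC (log2 change 0.76, adjusted p = 0.00119 in limma), on a stretch of chromosome 3 whose 50 neighbours had a median of 0.34. TRMU, which thiolates the wobble base of several mitochondrial tRNAs, had 52.1 ± 1.94 FPKM in Q63E and 81.2 ± 2.37 FPKM in VEC (log2 change −0.63, adjusted p = 0.000319), beside a neighbour median of −0.23 on chromosome 22. TRNT1, which adds the CCA end to tRNAs, had a log2 change of 0.35 (adjusted p = 0.0292) with a neighbour median of 0.35, and METTL17 one of 0.28 (adjusted p = 0.0425) with a neighbour median of 0.06. TRNT1 was lost without Q63E replicate 1 or 3 or VEC replicate 1 or 3, and METTL17 without Q63E replicate 1 or 3 or any 1 VEC replicate. A list of 22 genes held mitochondrial aminoacyl-tRNA synthetases together with the amidotransferase subunits GATB, GATC and QRSL1. Of these 22 genes 0 were lower in limma (1 at an unadjusted p under 0.05) and 1 was higher. The higher one was HARS2 (log2 change 0.25, adjusted p = 0.0161, neighbour median 0.02), the enzyme for histidine, named after its value was seen. The 2 of highest mean, KARS1 and GARS1, which also charge tRNAs in the cytosol, had log2 changes of 0.08 and −0.05 (adjusted p = 0.163 and 0.691).

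Of 20 genes of mitochondrial DNA replication and copy number, 1 was lower (5%) and 2 higher, against 14.0% lower and 11.3% higher over all rows. MGME1, a nuclease that trims mitochondrial DNA ends, had a log2 change of −0.28 (adjusted p = 0.0402 in limma), EXOG, another mitochondrial nuclease, one of 0.62 (adjusted p = 0.0198) and SLC25A36, a pyrimidine nucleotide carrier, one of 0.39 (adjusted p = 0.00473). The neighbour median was −0.12 for MGME1 and 0.02 for SLC25A36. MGME1 was lost without Q63E replicate 1 or 2 or VEC replicate 1 or 3, and EXOG without Q63E replicate 2 or 3 or VEC replicate 1 or 3. EXOG lies among genes of chromosome 3 with a neighbour median of 0.38. Of 8 regulators of mitochondrial biogenesis tested, 2 were lower (25%) and 1 higher. GABPA, a subunit of the factor also called nuclear respiratory factor 2, had 6.62 ± 0.204 FPKM in Q63E and 9.59 ± 0.355 FPKM in VEC (log2 change −0.48, adjusted p = 0.00412), with a neighbour median of −0.29 on chromosome 21. ESRRA, an orphan nuclear receptor, had a log2 change of −0.36 (adjusted p = 0.014, neighbour median 0.06) and MYC one of 0.49 (adjusted p = 0.00358, neighbour median −0.14). PPARGC1A and PPARGC1B, coactivators of this programme, were below the minimum mean and not tested.

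The nuclear partners of the mitochondrial subunits were also set beside them. Of 17 complex V genes 6 were lower and 2 higher (35.3% lower, median −0.09), against 14.0% lower and 11.3% higher over all rows. Both mitochondrial members of that complex were lower by over 1.1 on the log2 scale. The 2 higher, named after their values were seen, were ATP5PB (log2 change 0.35, adjusted p = 0.0126 in limma, neighbour median 0.31) and ATP5PD (log2 change 0.23, adjusted p = 0.00782, neighbour median 0.20). ATP5ME had 143 ± 11.2 FPKM in Q63E and 243 ± 20.7 FPKM in VEC (log2 change −0.77, adjusted p = 0.0012 in limma), ATP5F1C a log2 change of −0.48 (adjusted p = 0.00157), ATP5PF one of −0.46 (adjusted p = 0.00412) and ATP5F1D one of −0.36 (adjusted p = 0.00648). ATP5ME, ATP5F1C and ATP5PF lie on chromosomes 4, 10 and 21 among genes with neighbour medians of −0.44, −0.38 and −0.27. For ATP5F1D the neighbour median was −0.11. Of 11 complex IV genes 1 was lower, COX6C (log2 change −0.46, adjusted p = 0.0274, neighbour median −0.16, named after its value was seen), and 0 higher in limma (0 at an unadjusted p under 0.05). The 2 of highest mean, COX4I1 and COX8A, had log2 changes of −0.03 and −0.10 (adjusted p = 0.792 and 0.0915). COX8A passed as lower when scaled on rows outside the mitochondrial chromosome (adjusted p = 0.0301 in limma) and with quantile normalization (adjusted p = 0.0483). Of 9 complex III genes 1 was lower, CYC1 (cytochrome c1, log2 change −0.34, adjusted p = 0.000973, neighbour median −0.21), and 1 higher, UQCRC1 (log2 change 0.41, adjusted p = 0.00359, neighbour median 0.38). Of 7 nuclear core subunits of complex I 0 passed in limma (1 lower and 0 higher at an unadjusted p under 0.05), and NDUFS8 and NDUFV1 had log2 changes of −0.11 and 0.03 (adjusted p = 0.167 and 0.522).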

How the data were processed

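The authors deposited 1 table per library with 1 value per row, to 2 decimals, for 58233 Ensembl genes and 649 unnamed loci, which made up at most 0.511% of the summed level per library. Values were read as FPKM as deposited, although neither file headers nor labels name the unit. Per the submitters' processing notes the tools were Bowtie2 and HISAT2 2.1.0 and the build GRCh38.p10, with no role stated. The counting program and annotation: not given in the sources used here. At best 30.9% to 33.2% of low values were within 0.1 of whole reads, against 20% without steps, so reads were not recovered. Members, coordinates and gene lengths come from GENCODE release 29 on GRCh38, symbols from a table that paired 57392 identifiers. Ensembl rows with a mean of at least 1 were tested on log2(FPKM + 1) with limma 3.58.1 under R 4.3.3 (two-sided, a group term, moderated variance with a trend on level), Benjamini-Hochberg adjustment over 13346 rows and a threshold of 0.05. Fold changes of low genes are understated. The steps were tested on simulated data. Single values were compared by exact permutation. Named nuclear genes are up to 4 past the threshold per list with the largest change, or, in lists where fewer than 2 passed, the 2 of highest mean. Named copies have a mean of at least 10. The members and lists were chosen with earlier results of these data known. Alternatives covered pseudocount, filter, scaling, variance model, rows tested, replicate block and each library left out.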

Additional observations from a re-analysis of the deposited data

How the results depend on the processing

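Of the 16 mitochondrial genes tested, 12 were lower as reported, 9 to 12 with 1 library left out (9 without Q63E replicate 3), and 10 to 12 under the other alternatives that gave a count, with 0 higher in each of these. No mitochondrial gene changed sign except relative to the sum of the 13 mitochondrial mRNAs. By construction that scaling removes their common fall, and the log2 changes were then 0.60 for MT-RNR1, 0.45 for MT-RNR2, 0.24 for MT-ND1, 0.0741 for MT-TN, 0.41 for MT-CO1, 0.16 for MT-CO2, 0.48 for MT-ND4L, 0.45 for MT-ND4, 0.50 for MT-ND5, 0.62 for MT-ND6 and 0.0327 for MT-CYB, while MT-ND2 and MT-ND3 kept their sign and did not pass. It moved the median of all rows by 0.62. The difference in mitochondrial share (−3.12 percentage points, Q63E minus VEC) was −3.38 to −2.88 with 1 library left out, −3.07 for mRNAs, −0.0361 for rRNAs and −0.0115 for tRNAs alone. Over all rows 1587 were lower and 1832 higher with libraries rescaled to a common total, and 1699 lower and 1730 higher with quantile normalization, against 1873 and 1510 as reported. List members were 16 lower and 15 higher with the rescaling, and 18 and 14 with quantile normalization. COX4I1, which did not pass, had log2 changes of 0.00662 with libraries rescaled to a common total, and of −0.0912 to 0.0361 with 1 library left out (above 0 without Q63E replicate 1 or VEC replicate 1). With 1 library left out, 994 to 1153 of all rows were higher (1510 as reported), 13 to 19 list members lower (18) and 7 to 11 higher (11). Same-numbered libraries did not deviate together across all rows tested (r = −0.0419, −0.00866 and −0.0249). A pairing that touches few genes could not be seen this way. With the replicate number as a block, 10 mitochondrial genes, 10 list members and 1266 of all rows were lower, and 942 rows higher. MT-RNR2, MT-CO1 and MT-ND5 did not pass in that fit and MT-ND4 did. Calls of TFB2M, TRNT1, METTL17, MGME1 and EXOG were also lost with no filter on low values, those of MRPS27, METTL17 and MGME1 without the variance trend, those of MRPS27 and METTL17 when scaled on rows outside the mitochondrial chromosome, that of TFB2M with the rescaling and that of MGME1 with quantile normalization. Depth is unknown, so counting error could not be separated from the spread between libraries.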
